A study of Mus musculus with 10 samples.

Results

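The 10 genes described here encode enzymes that make NAD or use it up: Nampt, Naprt, Nadsyn1, Nmnat1, Nmnat3, Nadk, Nadk2, Cd38, Parp1 and Parp2. They were listed by symbol, with earlier results of these data known, and all 10 were found among the 16865 symbols of the table. Their transcripts were measured in bulk RNA from leukemic mouse spleens, 5 libraries in a Sirt1 deleted group and 5 in a Control group. Every mouse was a sub-lethally irradiated recipient of intravenously transplanted Sirt1 conditional knockout T-ALL, a T cell acute lymphoblastic leukemia, and the strain is given as C57BL/6. The Sirt1 deleted group had 3 mg of tamoxifen per mouse in corn oil by intraperitoneal injection. The Control group had corn oil only. Its leukemia carries the conditional allele as well, and no group had tamoxifen without deletion, so drug and deletion cannot be told apart. The labels name neither the Cre that acts in the leukemia nor the ages, nor how many primary leukemias were transplanted, and they list no sort, so host spleen cells are part of each sample. Nothing states that the libraries are independent leukemias, and p-values measure only the spread between these samples.

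NAD carries electrons in metabolism and is also a substrate that some enzymes consume. Sirtuins such as SIRT1 spend NAD to remove acyl groups from proteins, PARP enzymes spend it to build ADP-ribose onto proteins, and CD38 cleaves it. All of these release nicotinamide, which NAMPT and then an NMNAT enzyme turn back into NAD. A second route, the Preiss-Handler pathway, starts from nicotinic acid with NAPRT and ends with NADSYN1, and NAD kinases convert part of the pool into NADP. Inhibitors of NAMPT are toxic to many leukemia cells in culture. The comparison asks which of these transcripts differ in established leukemia after treatment to delete Sirt1, a major NAD consumer.

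Cd38 was lower in the Sirt1 deleted group, at 63.4% of the Control level, and was the member with the largest difference. Nampt and Parp1 were also called lower, by smaller amounts, and Parp2 was called higher. The remaining 6 members, Naprt, Nadsyn1, Nmnat1, Nmnat3, Nadk and Nadk2, did not pass. Thus 4 of 10 members passed, against 32% of all 13567 genes tested, a share too close to that background to be a result about NAD enzymes. By direction, 1 member was higher (14.5% of all genes) and 3 were lower (17.5%). The groups did not overlap for 1 member, Cd38, against 16.5% of all genes (8.28% higher and 8.18% lower). A gene counts as called at a Benjamini-Hochberg adjusted p under 0.05 in limma, fitted to log2(value + 1) over all tested genes. Differences are log2 values on that scale, Sirt1 deleted minus Control. The median difference was -0.015 for the members and 0.001 for all tested genes.

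**Figure D1:**
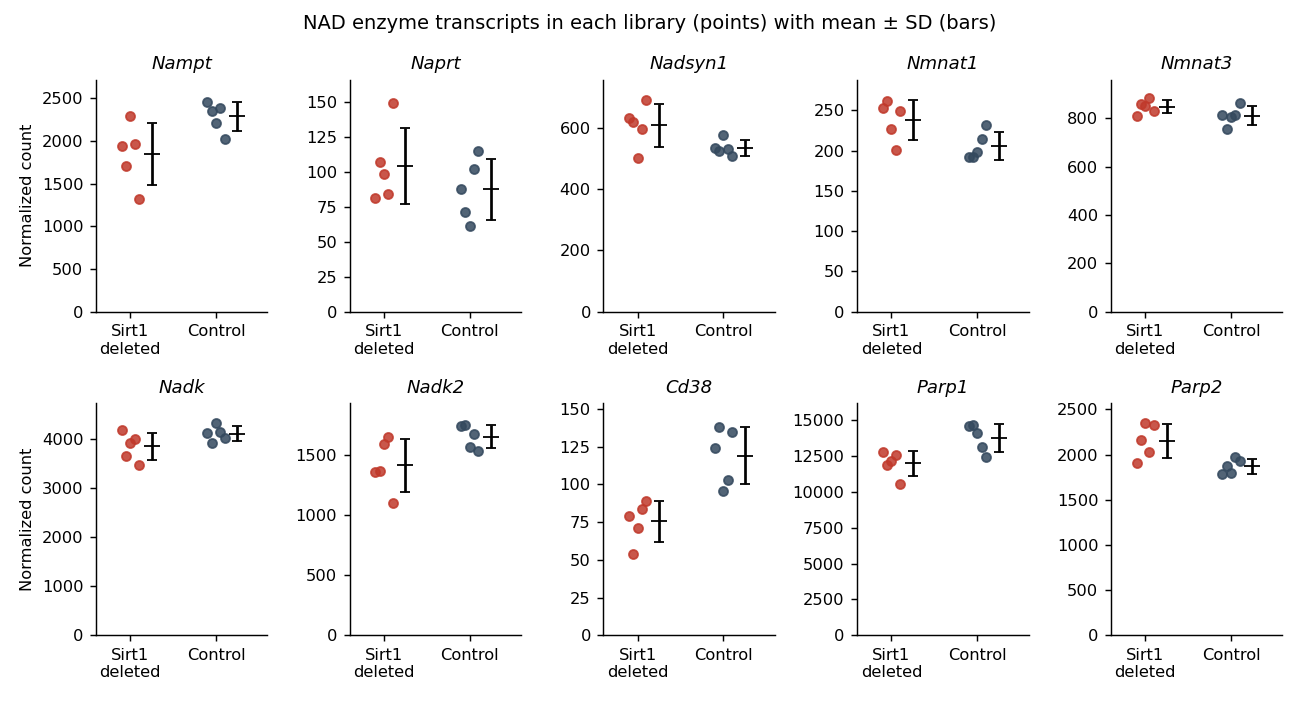
Normalized count (vertical axes, from 0) of each NAD enzyme gene in 5 Sirt1 deleted and 5 Control libraries. Points are libraries and bars are mean ± SD; Cd38 alone shows groups that do not overlap, at 54.2 to 89.0 in Sirt1 deleted libraries and 95.7 to 138 in Control libraries.

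The deposited values are normalized counts that sum to 34061023 to 34790203 in Sirt1 deleted and 33587587 to 34271958 in Control libraries. From the step between the lowest values, the depth was about 21200000 to 39400000 reads in Sirt1 deleted and 28500000 to 44700000 reads in Control libraries. All 12 T lineage markers were present, with summed levels of 205365 to 234944 in Sirt1 deleted libraries and 215434 to 245247 in Control libraries, led by Notch1. Among them Rag1 (-0.66) and Notch1 (-0.32) were called lower, and Ptcra (0.36) and Cd3g (0.27) higher. Sirt1 itself averaged 918 ± 155 in the Sirt1 deleted group and 1233 ± 97.6 in the Control group (SD, n = 5 each), without overlap (-0.44, SE 0.107, limma adjusted p = 0.0125; -0.25 with the length and GC correction described next, adjusted p = 0.0289). A total for the whole gene does not resolve deleted exons, and at 73.8% of Control it does not show how complete the deletion was. The libraries also differed in how levels followed transcript length. The slope of a library, fitted to log2 deviations from the gene means against log2 length, was -0.0981 ± 0.0862 in the Sirt1 deleted group and 0.0981 ± 0.0615 in the Control group (SD, n = 5 each, two-sided exact permutation p = 0.00794). A second value, corrected within each library for length and GC content, is therefore given below. Since the slopes separate the groups, true differences tied to length are lost in it too. With group means removed, Pearson's r of Sirt1 with the slope was 0.86 over 10 libraries. Its difference was -0.001 with the slope as a covariate. Of all calls, 45.4% were higher as deposited and 58.2% after correction.

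Levels between genes were compared as normalized counts per kb of the longest coding transcript, over all 10 libraries. Parp1 was the most abundant member, at 3089 ± 223 per kb in the Sirt1 deleted group and 3553 ± 252 in the Control group, and stood at the 94.4th percentile of tested coding genes. Nadk, with 1219 ± 89.8 and 1300.3 ± 49.3 per kb in Sirt1 deleted and Control libraries, and Parp2, with 1138 ± 99.2 and 988 ± 43.6 in the same order of groups, came next, and their ranges overlapped. A middle tier held Nampt (407 ± 79.8 per kb in Sirt1 deleted, 505 ± 38.0 in Control), Nadk2 (380 ± 59.1 and 444 ± 26.8) and Nmnat3 (391 ± 12.6 and 374 ± 18.3). These neighbours overlapped too. Nadsyn1 stood alone below them at 230.1 ± 26.3 per kb in Sirt1 deleted and 202 ± 9.74 in Control libraries. At the low end, Nmnat1 (89.7 ± 9.33 per kb in Sirt1 deleted, 77.5 ± 6.51 in Control), Naprt (54.8 ± 14.4 and 46.0 ± 11.6) and Cd38 (23.1 ± 4.15 and 36.5 ± 5.81) overlapped each with the next. All of these are mean ± SD with n = 5 per group. The order depends on the transcript chosen: per kb of the median coding transcript, Nmnat3 (604) stood above Nampt (456), and Nadsyn1 (379) came close to Nadk2 (425). Nampt, the entry to nicotinamide salvage, was thus higher per kb than Naprt, the entry from nicotinic acid, in every library.

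Nampt encodes the rate-limiting enzyme of nicotinamide salvage (chromosome 12, 32819545 to 32853349, plus strand, GRCm38). In Sirt1 deleted libraries 1 to 5 it held 1936, 1708, 2295, 1966 and 1319 normalized counts. In Control libraries 1 to 5 it held 2455, 2355, 2204, 2390.4 and 2026. The groups overlap, since Sirt1 deleted library 3 lies above Control libraries 3 and 5, and Sirt1 deleted library 5 is the lowest of all. The means were 1845 ± 361 in the Sirt1 deleted group and 2286 ± 172 in the Control group (SD, n = 5 each), a log2 difference of -0.33 (SE 0.119, limma adjusted p = 0.0495). Length and GC correction left -0.11 (adjusted p = 0.284), so the call ended. It also ended without Sirt1 deleted library 5 (-0.21, adjusted p = 0.0681). Nampt kept its call under 8 of 26 alternatives, with adjusted p from 0.0104 to 0.968 over all of them.

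The Preiss-Handler enzymes did not pass. Naprt, which attaches nicotinic acid to phosphoribosyl pyrophosphate (chromosome 15, 75890956 to 75894481), ranged from 81.3 to 149 with a median of 98.6 in Sirt1 deleted libraries and from 61.2 to 115 with a median of 87.5 in Control libraries (0.25, SE 0.200, adjusted p = 0.35). Its 95% interval was -0.18 to 0.68. The difference was 0.043 after length and GC correction, 0.11 without Sirt1 deleted library 5 and 0.13 without Control library 3. Its exons overlap those of Eef1d on the same strand, so how reads were divided between the 2 genes is uncertain. Nadsyn1, the glutamine-dependent NAD synthetase (chromosome 7, 143795584 to 143822849), held 632, 618, 501, 596 and 691 in Sirt1 deleted libraries 1 to 5, and 533, 525, 577, 531 and 507 in Control libraries. Of its Sirt1 deleted libraries, 4 lay above every Control library and library 3 lay below all 5, and the difference was 0.18 (SE 0.0843, adjusted p = 0.119). Without Sirt1 deleted library 3 it was 0.25 and passed (adjusted p = 0.0227).

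Both routes meet at the NMNAT enzymes, which add the adenylyl group; NMNAT1 is nuclear and NMNAT3 is reported in mitochondria. Nmnat1 (chromosome 4, 149467572 to 149485202) held 253, 262, 227, 200.3 and 249 in Sirt1 deleted libraries 1 to 5, against 192, 192, 199, 214 and 232 in Control libraries. Sirt1 deleted libraries 1, 2 and 5 lay above every Control library and libraries 3 and 4 among them, and the difference of 0.21 did not pass (SE 0.0989, adjusted p = 0.122). After length and GC correction it was about as large, 0.22 (adjusted p = 0.137). Nmnat3 (chromosome 9, 98287435 to 98420438) averaged 847 ± 27.3 in the Sirt1 deleted group and 810.3 ± 39.5 in the Control group (SD, n = 5 each). The groups overlapped widely. Its difference was 0.065 with a 95% interval of -0.06 to 0.19 (adjusted p = 0.403), and its sign turned after correction (-0.006). Nmnat2, a largely neuronal isoform outside the 10, was near the detection limit at 11.2 ± 4.77 in Sirt1 deleted and 13.5 ± 2.85 in Control libraries.

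The kinases that make NADP from NAD did not pass either. Nadk, the cytosolic kinase (chromosome 4, 155562378 to 155591001), averaged 3841 ± 283 in the Sirt1 deleted group and 4098 ± 155 in the Control group (SD, n = 5 each; -0.10, adjusted p = 0.213; -0.06 without Sirt1 deleted library 5). Nadk2, the mitochondrial kinase (chromosome 15, 9071260 to 9110891), held 1364, 1371, 1597, 1657 and 1101 in Sirt1 deleted libraries 1 to 5, and 1745, 1754, 1574, 1682 and 1534 in Control libraries. Sirt1 deleted libraries 1, 2 and 5 lie below all Control libraries while libraries 3 and 4 lie among them. The difference was -0.24 (SE 0.0976, adjusted p = 0.0766) and shrank to -0.11 with length and GC correction (adjusted p = 0.25). Nadk2 passed without Sirt1 deleted library 3 (-0.28, adjusted p = 0.0464), without Sirt1 deleted library 4 (-0.30, adjusted p = 0.0321) and with array weights (-0.20, adjusted p = 0.0473). Without Sirt1 deleted library 5 it was smaller and did not pass (-0.15, adjusted p = 0.141).

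CD38 is a surface enzyme that cleaves NAD and makes cyclic ADP-ribose. B cells and activated T cells and macrophages can carry it. Cd38 (chromosome 5, 43868553 to 43912375, plus strand) held 79.4, 54.2, 71.3, 83.9 and 89.0 normalized counts in Sirt1 deleted libraries 1 to 5. Control libraries 1 to 5 held 124, 138, 95.7, 103 and 135. Every Sirt1 deleted library was below every Control library. The means were 75.6 ± 13.6 in the Sirt1 deleted group and 119 ± 19.0 in the Control group (SD, n = 5 each), a log2 difference of -0.66 (SE 0.158, 95% interval -1 to -0.31, limma adjusted p = 0.012). The two-sided exact permutation p was 0.00794, the smallest that 5 against 5 allows. Cd38 is a weakly expressed gene here, and the values rest on about 39 to 97 reads in Sirt1 deleted and 101 to 178 reads in Control libraries. Counting error alone is then 10.2% to 16.1% and 7.49% to 9.97% in the same order of groups. In bulk samples, fewer cells of a type and less RNA per cell cannot be told apart.

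Of the 10 members, only Cd38 was still called after length and GC correction (-0.55, SE 0.160, adjusted p = 0.0369), against 14.6% of 12396 coding genes (8.48% higher and 6.08% lower). It was also called whichever single library was left out, with differences from -0.73 to -0.54. Among coding genes of 2659 to 3606 bases, the quintile that holds it, 2.06% lay at or below its difference. Its call ended without the 3 libraries of steepest slope (-0.62, adjusted p = 0.102) and with the length slope as a covariate (-0.71, adjusted p = 0.968), although the difference itself hardly moved. Over all alternatives the difference stayed between -0.73 and -0.45.

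Markers of host cells, only some of which are known to carry Cd38, moved as well, where 14.5% of all tested genes were called higher and 17.5% lower. Of 11 macrophage markers, all were above 0 in every library, 6 were called lower and 0 higher, and their summed level was 6324 to 10183 in Sirt1 deleted and 10959 to 15885 in Control libraries, without overlap. B cell markers went the other way: 4 of 10 tested were called higher and 0 lower, with sums of 1168 to 1799 in Sirt1 deleted and 874 to 1191 in Control libraries. Ebf1 was at 0 in at least 1 library and Ighm was not in the table. Neutrophil marker sums were 1968 to 8528 in Sirt1 deleted and 1456 to 4099 in Control libraries, with 1 of 9 higher. For NK and plasma cells the sums were 16608 to 18849 and 16285 to 18577 in the same order, led by Gzma. The 1 of 7 called higher was Jchain, a plasma cell marker (0.83, limma adjusted p = 0.0196). Gzma averaged 10262 in Sirt1 deleted and 9838 in Control libraries, but Klrb1c only 28.8 and 28.4, and Nkg7 15.7 and 15.3. The sum therefore hardly follows its weaker markers. Erythroid marker sums were 217600 to 481685 in Sirt1 deleted and 438475 to 557043 in Control libraries, with 3 of 11 lower. With the macrophage markers as a covariate, added after seeing the data, the Cd38 difference was -0.45 and no longer called (limma adjusted p = 0.206). With the B cell markers it was -0.66 and not called (adjusted p = 0.176). Of all 13567 genes, only 3 and 1 were called in these fits. Cd38 stayed called with macrophage and neutrophil markers together (-0.66, adjusted p = 0.0158) and with erythroid markers (-0.65, adjusted p = 0.0354). Those fits called 4073 and 2822 genes. In the first of them Nampt (-0.33), Parp1 (-0.20), Parp2 (0.20) and Sirt1 (-0.44) also kept their differences without a covariate. The log2 sums moved in opposite directions, -0.59 for macrophage and 0.84 for neutrophil markers. That fit hardly adjusted the group differences, so the call kept in it does not show how Cd38 relates to either list. With group means removed, Pearson's r of Cd38 over 10 libraries was 0.33 with the log2 macrophage sum. It was -0.059 with the B cell sum and 0.067 with the neutrophil sum. Which cells the Cd38 transcripts came from was not tested.

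**Figure D2:**
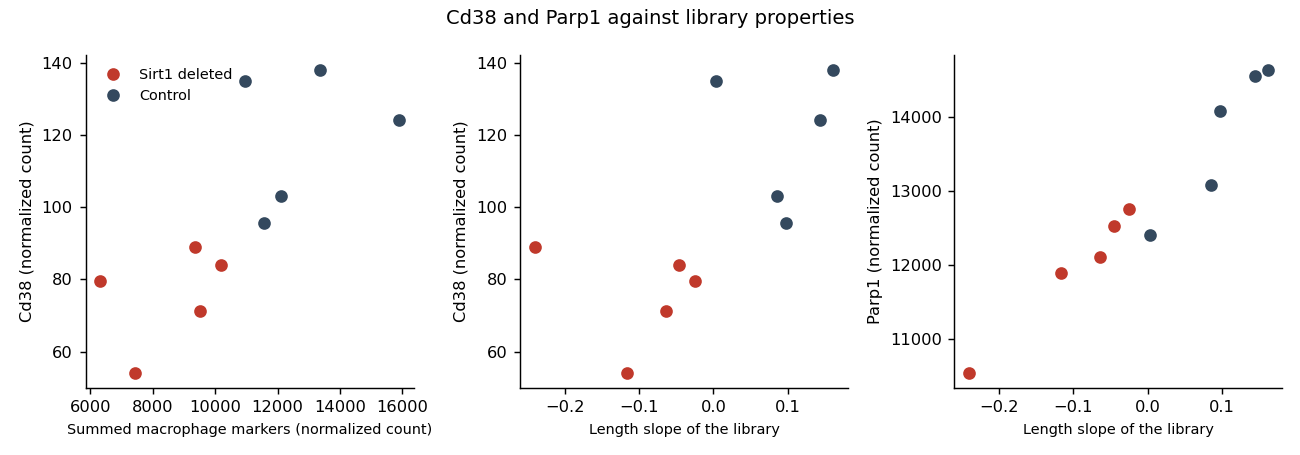
Cd38 (left, middle) and Parp1 (right) in normalized counts for each library, against the summed macrophage markers (left, in normalized counts) or the slope of the library against log2 length (middle, right). Axes do not start at 0; Sirt1 deleted libraries lie at macrophage sums of 6324 to 10183 and Control libraries at 10959 to 15885, and Parp1 climbs with the slope in both groups while Cd38 does not.

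PARP1 and PARP2 bind DNA breaks and build poly(ADP-ribose), which makes them large NAD consumers after damage. Parp1 (chromosome 1, 180568924 to 180601254, plus strand) held 12755, 11889.6, 12108, 12527 and 10547 in Sirt1 deleted libraries 1 to 5. Control libraries 1 to 5 held 14567, 14645, 14082, 13089 and 12414. The groups overlapped only through Control library 5, which lay below Sirt1 deleted libraries 1 and 4. The mean was 11965 ± 863 in the Sirt1 deleted group and 13759 ± 975 in the Control group (SD, n = 5 each; -0.20, SE 0.0654, limma adjusted p = 0.0333). Parp2 (chromosome 14, 50807841 to 50821301, plus strand) held 1912, 2164, 2347, 2027 and 2325 in Sirt1 deleted libraries 1 to 5, and 1781, 1873, 1798, 1973 and 1929 in Control libraries. Here only Sirt1 deleted library 1 fell among the Control libraries. Parp2 averaged 2155 ± 188 in the Sirt1 deleted group and 1871 ± 82.6 in the Control group (SD, n = 5 each; 0.20, SE 0.0654, limma adjusted p = 0.0338).

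Neither PARP call outlasted the correction for length and GC content, although the Parp2 value came close. Parp1 stood at -0.13 (adjusted p = 0.0939) and Parp2 at 0.14 (adjusted p = 0.0517). Both calls also ended without Control library 1, 2 or 3 and without Sirt1 deleted library 2 or 5, and that of Parp2 without Sirt1 deleted library 3. Over these omissions the differences lay between -0.20 and -0.16 for Parp1 and between 0.17 and 0.20 for Parp2. The longest coding transcript has 3873 bases for Parp1 and 1894 for Parp2, which puts them on opposite sides of the length trend.

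The start regions of the PARP pair are shown because these members, with opposite differences, both hold the E-box CACGTG, the palindrome that MYC-MAX and CLOCK-BMAL1 dimers bind. The sequences are from RefSeq on GRCm38.p6, plus strand, 5′ to 3′, with the motif in capitals.
Parp1, chr1:180568641-180568890: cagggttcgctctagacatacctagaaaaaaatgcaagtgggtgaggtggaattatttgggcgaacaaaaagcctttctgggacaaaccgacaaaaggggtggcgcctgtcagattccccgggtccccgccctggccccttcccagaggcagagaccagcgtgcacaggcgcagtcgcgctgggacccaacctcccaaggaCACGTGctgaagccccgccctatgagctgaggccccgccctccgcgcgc
Parp2, chr14:50807733-50807840: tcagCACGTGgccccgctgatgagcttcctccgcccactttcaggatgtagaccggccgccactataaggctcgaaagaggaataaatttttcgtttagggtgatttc
The motif ends 43 bases before the RefSeq start of Parp1 and 173 bases before that of Parp2. The Parp2 stretch begins just after an exon of another protein-coding gene and ends at the start of the GENCODE gene. Its first 35 bases, which hold the motif, lie in Rpph1, the RNA of ribonuclease P on the other strand. Windows of 250 bases before the start were found for 8 of the 10 members, 10 windows in all, and the motif was also in 1 of the 2 windows of Nadk. Among 32851 RefSeq windows of that size, 6.02% hold CACGTG. The GC box GGGCGG, read on both strands, occurred 3 times in the Parp1 window, 1 time in that of Parp2 and 5 times in that of Nampt. It occurred 2 times each in those of Nadsyn1 and Nmnat3. Each Nmnat1 window and 1 of the 2 Nadk windows held it 1 time. At least 1 GC box was in 32.7% of all windows. Neither motif was in the Cd38 window or in the other Nadk window. The RefSeq windows of Cd38 and Nampt lie wholly inside the GENCODE gene. A match describes the letters only and says nothing of binding.

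Ratios within a library do not depend on how the library was scaled. Of 4 ratios compared, that of Parp1 to Parp2 had the smallest p. It was 6.67, 5.49, 5.16, 6.18 and 4.54 in Sirt1 deleted libraries 1 to 5, and 8.18, 7.82, 7.83, 6.63 and 6.44 in Control libraries. Sirt1 deleted library 1 overlapped with Control libraries 4 and 5. The log2 ratio averaged 2.47 ± 0.218 in the Sirt1 deleted group and 2.88 ± 0.157 in the Control group (SD, n = 5 each), a difference of -0.40 (two-sided exact permutation p = 0.0238, 0.0952 after adjustment over the 4 ratios). It therefore failed the correction, with a difference of -0.27 after length and GC correction (exact permutation p = 0.0238, adjusted 0.0952). Nampt to Naprt was 8.84 to 23.8 in Sirt1 deleted and 17.6 to 36.0 in Control libraries (log2 difference -0.58, exact permutation p = 0.0952, adjusted 0.19). That difference was -0.15 after length and GC correction (exact permutation p = 0.54) and -0.33 without Sirt1 deleted library 5. Nmnat1 to Nmnat3 was 0.227 to 0.312 and 0.236 to 0.269 in the same order of groups (0.14, exact permutation p = 0.143, adjusted 0.19), and the difference was 0.22 both after correction and without Sirt1 deleted library 4. Nadk to Nadk2 was 2.41 to 3.15 in Sirt1 deleted and 2.23 to 2.75 in Control libraries (0.14, exact permutation p = 0.19, adjusted 0.19), with a difference of 0.03 after correction and 0.09 without Sirt1 deleted library 5.

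**Figure D3:**
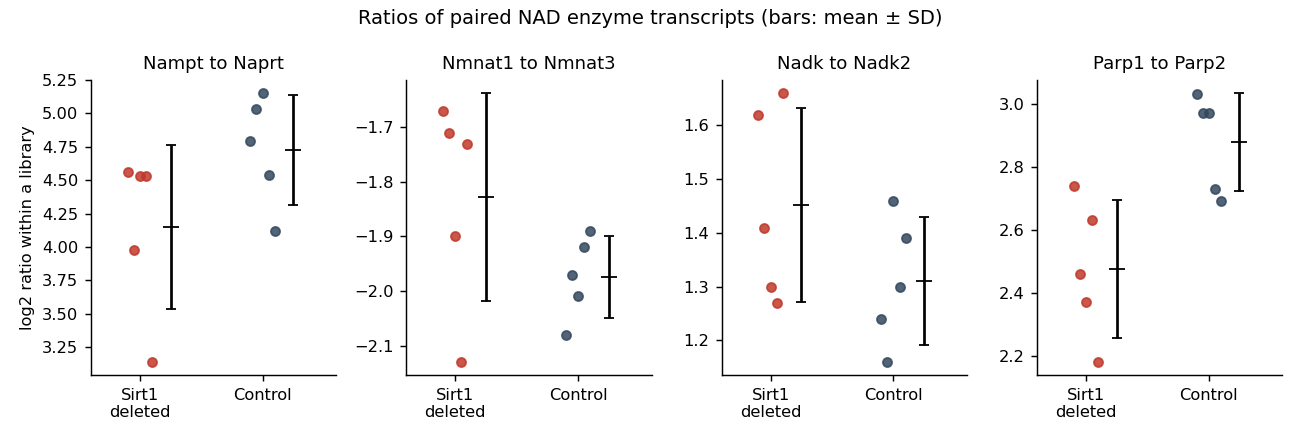
Log2 ratio of paired NAD enzyme transcripts (vertical axes, not from 0) within each of 5 Sirt1 deleted and 5 Control libraries, points, with mean ± SD as bars. Parp1 to Parp2 averaged 2.47 in Sirt1 deleted and 2.88 in Control libraries, and all 4 ratios overlap between the groups.

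The signs of the members' differences split by transcript length, though their sizes did not follow it strictly. The median log2 difference of all coding genes was 0.083 in the length quintile of Naprt, Parp2, Nmnat3, Nadsyn1 and Nmnat1 (1785 to 2658 bases). It was -0.018 in that of Nadk and Cd38, and -0.12 in that of Nadk2, Parp1 and Nampt (3607 to 5061 bases). The 5 members in the shorter quintile all had positive differences and the 5 longer ones negative differences. Apart from Cd38, members lay between the 16.8th percentile (Nampt) and the 83.2nd percentile (Naprt) of their own quintile. Inside the groups the same trend appeared. With group means removed, Pearson's r with the library's slope over 10 libraries was 0.97 for Parp1, 0.85 for Nampt, 0.81 for Nadk2 and 0.66 for Nadk. It was -0.82 for Naprt, -0.61 for Parp2, -0.59 for Nmnat1, -0.37 for Nmnat3, -0.36 for Nadsyn1 and -0.084 for Cd38. The slope is computed from the same libraries, so these values are descriptions.

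**Figure D4:**
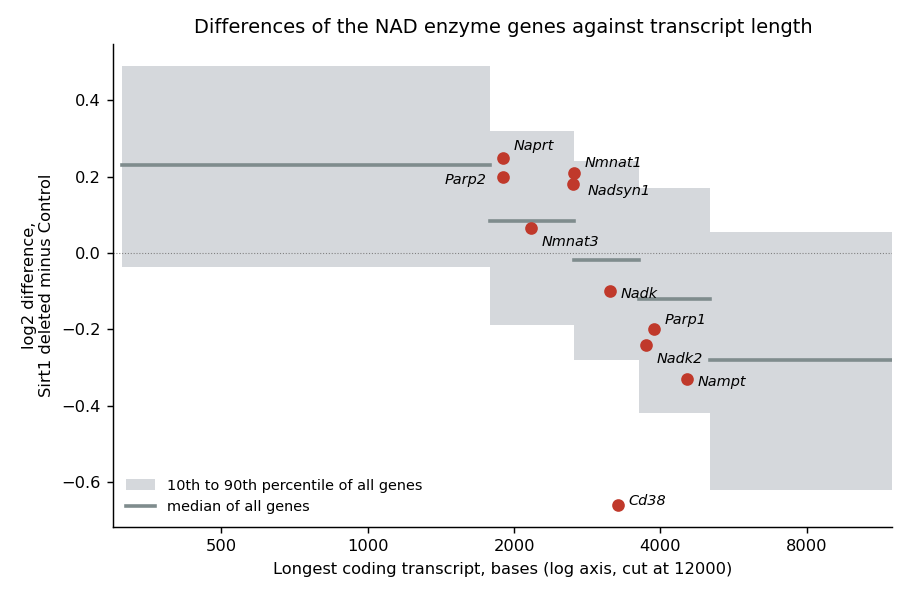
Log2 difference, Sirt1 deleted minus Control, of each NAD enzyme gene (points) against the length of its longest coding transcript (log axis). Grey bands and lines give the 10th to 90th percentile and the median of coding genes in each quintile of length; Cd38, at -0.66, is the only point outside its band.

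**Figure D5:**
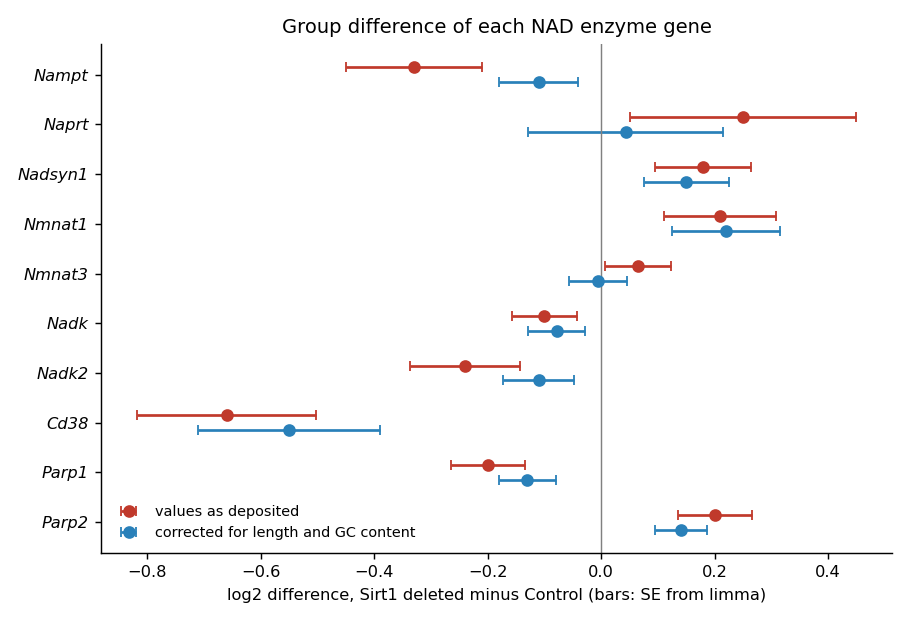
Log2 difference, Sirt1 deleted minus Control, with SE from limma for each NAD enzyme gene, as deposited and after correction for transcript length and GC content. After correction Nampt stands at -0.11 and Cd38 at -0.55.

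Among the members themselves, within-group deviations over the 10 libraries were most alike for Nampt and Nadk2 (Pearson's r = 0.90) and most opposed for Naprt and Parp1 (-0.88). With the library's slope, r was 0.85 for Nampt, 0.81 for Nadk2, -0.82 for Naprt and 0.97 for Parp1. What makes these pairs alike or opposed was not tested. Of 12357 other genes, Dlat (0.994), Dph6 (0.992) and Mettl14 (0.989) were most like Nampt. Among those most like Parp1 were Tbc1d5 (0.992) and Ttbk2 (0.991). For Cd38 they were Ube4bos3 (0.938), Zfp467 (0.905) and Cd300lf (0.894), and the differences of these 3 were 0.20, 0.10 and -0.002, none of them called. Dlat (-0.036), Dph6 (-0.16) and Mettl14 (-0.17) were not called either, while Tbc1d5 (-0.25) and Ttbk2 (-0.58) were called lower. All are the highest of 12357 values over only 10 libraries, so a high r is not evidence of a link, and none was tested.

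Of 46 further tested genes of NAD metabolism other than Sirt1, 14 were called (30.4%, against 32% of all genes), 8 higher and 6 lower. After length and GC correction 5 were called, against 14.6% of coding genes. The groups did not overlap for 10 of the 46 (21.7%, against 16.5% of all genes). Of 9 genes of the de novo route from tryptophan, Tdo2, Ido1, Ido2, Kynu and Haao lay under the filter, and the other 4 were tested and did not pass. Afmid averaged 802 ± 124 in Sirt1 deleted and 655 ± 83.4 in Control libraries, and Kmo 463 ± 37.9 and 528 ± 13.6 in the same order of groups (SD, n = 5 each). Qprt, its last step into NAD synthesis, held 49.9 to 94.5 in Sirt1 deleted and 51.8 to 57.5 in Control libraries. Nmrk1, the nicotinamide riboside kinase, was higher without overlap, at 211 ± 13.6 in Sirt1 deleted and 169 ± 19.9 in Control libraries (SD, n = 5 each; 0.33, adjusted p = 0.0297). It stood at 0.30 after correction (adjusted p = 0.0503). Slc25a51, the mitochondrial NAD carrier, was lower (-0.22, adjusted p = 0.0325) and lost its call on correction (-0.049). Bst1, the closest relative of Cd38 and its neighbour on chromosome 5, held 45.5 ± 9.34 in Sirt1 deleted and 41.0 ± 7.41 in Control libraries and did not pass (0.14, adjusted p = 0.582).

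Of 14 other PARP family genes, 1 was called higher and 4 lower, against 14.5% and 17.5% of all genes. With so few genes, these counts are not read as a result about the family. After correction 2 of the 14 were called, both lower, against 6.08% of coding genes called lower. The tankyrases Tnks and Tnks2, which add poly(ADP-ribose) to telomeric and signalling proteins, fell furthest. Tnks was 769 ± 189 in Sirt1 deleted and 1421 ± 232 in Control libraries (SD, n = 5 each; -0.91, SE 0.172, limma adjusted p = 0.00797). Tnks2 was 8778 ± 1469.8 and 12677 ± 1319 in the same order (-0.54, adjusted p = 0.00856). Both are long, at 9163 and 6481 bases, and both were still called after correction, at -0.54 for Tnks (adjusted p = 0.0109) and -0.23 for Tnks2 (adjusted p = 0.023). Parp14 (-0.30) and Tiparp (-0.32) were called lower without the correction and not with it, where Parp14 changed sign (0.041) and Tiparp stood at -0.13. Parp16 was called higher (0.23) and not after correction (0.18), and is named here after its value was seen.

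Of 7 enzymes that remove or degrade ADP-ribose, 3 were called, all higher, against 32% of all genes called and 14.5% called higher. After correction 1 of the 7 was called, against 14.6% of coding genes. The median difference of the list was then -0.004, against 0.21 as deposited. Adprh, the ADP-ribosylarginine hydrolase, was 3405 ± 199.8 in Sirt1 deleted and 2872 ± 169 in Control libraries (SD, n = 5 each; 0.25, adjusted p = 0.0115), and stayed called with correction (0.24, adjusted p = 0.00941). Macrod1 (0.35) and Adprhl2 (0.26) have short transcripts and were near 0 after correction, at -0.032 and 0.01. Among 7 genes of NADP turnover and NAD(P)H repair, Naxe, the NAD(P)HX epimerase, was higher (0.44, adjusted p = 0.0104) and Nnt, the mitochondrial transhydrogenase, was lower (-0.21, adjusted p = 0.0435), and neither was called after correction. Of the sirtuins other than Sirt1, Sirt7 (0.32) and Sirt6 (0.25) were called higher and 4 did not pass. Beside both lists, 14.5% of all genes were called higher and 17.5% lower. After correction Sirt7 stood at 0.11 and Sirt6 at 0.065, and neither was called. Slc29a1, a nucleoside transporter, and Noct, an NADP phosphatase, were called with the correction (-0.20 and 0.28) but not without it (-0.10 for each), so that Noct changed sign. They are named after their values were seen.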

How the data were processed

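Strand-specific libraries of total RNA were made from 10 spleen cell suspensions after red cell lysis, per the labels' protocols. The submitters' processing notes name kallisto 0.44.0, DESeq and mm10. The annotation, gene filter, step from transcripts to genes and use of strand are not given in the sources used here. The deposited signal is 1 normalized count per gene and library, not whole; 86.5% to 91.7% of the lowest values per library lay within 0.1 of a multiple of 1 step, but higher values did not, so whole reads were not recovered and no count model was fitted. All 10 columns were used.

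Genes with at least 10 in 5 or more libraries were tested (13567) with limma 3.58.1 (trend) in R 4.3.3 on log2(value + 1), adjusted by Benjamini-Hochberg over all of them. Ratios and slopes were tested by exact permutation. GENCODE M21 (GRCm38) gave positions and, for 12396 tested genes (91.4%), the longest coding transcript; the correction fitted natural splines with 5 degrees of freedom on its log2 length and GC content in each library. Alternatives were pseudocounts of 0.5 and 5, no filter or a minimum of 50, 3 scalings, robust limma, array weights, covariates and omitted libraries. Steps were tested on simulated data. Figures used Python 3.11.15 and matplotlib 3.10.9.

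The 10 genes and the lists were chosen with earlier results of these data known. Named are all members, Sirt1, the called genes of each pathway list (4 of smallest p where more passed) and, for Nampt, Cd38 and Parp1, the 3 genes most alike within groups, without clone names, pseudogenes and receptor segments. Of these 9 genes, 1 is not reported here. Replicate numbers follow the order of the series.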

Additional observations from a re-analysis of the deposited data

How the results depend on the processing

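No paired analysis was possible because the labels give no replicate numbers that match a Sirt1 deleted library with a Control library. The count of called members (4), of the 46 further pathway genes (14) and of all genes (4344) became 1, 5 and 1805 with length and GC correction. Leaving out 1 library gave 1 to 5 members, 8 to 17 pathway genes and 2212 to 4711 genes in all; the count was 1 member without Control library 1, 2 or 3 or Sirt1 deleted library 2 or 5. Without the 3 libraries of steepest slope (Sirt1 deleted 5, Control 1 and 2) the counts in limma were 0 (1 at an unadjusted p under 0.05), 0 (9) and 2 (3132). Adjusting for the length slope they were 0 (1), 0 (0) and 0 (577), and with B cell markers 0 (1), 0 (8) and 1 (2780). With macrophage and neutrophil markers together, a planned covariate, they were 3 (6), 14 (27) and 4073 (6005). Covariates added after seeing the data gave 0 (2), 0 (12) and 3 (4021) for macrophage markers, and 2, 7 and 2822 for erythroid markers. Quantile normalization called 2 members and turned the share of calls that are higher to 52.9%, against 45.4% as deposited and 58.2% after length and GC correction. Array weights called 23 pathway genes. Sirt1 lost its call without the steepest libraries (-0.27), with the length slope (-0.001) and with B cell (-0.26), macrophage (-0.36) and erythroid markers (-0.38). It stayed called with macrophage and neutrophil markers together (-0.44, limma adjusted p = 0.0175). The Sirt1 difference without a covariate was also -0.44, so that fit hardly adjusted it. The Parp1 to Parp2 ratio passed without Sirt1 deleted library 1 (-0.47, exact permutation p adjusted to 0.0317; -0.47 to -0.33 over single omissions). With the length slope as a covariate, signs turned for Nampt (0.17), Nmnat1 (-0.005), Naprt (-0.52), Nadk (0.051), Nadk2 (0.13) and Parp1 (0.066). The sign of Nmnat3 turned with length and GC correction (-0.006). Cd38 kept its sign in all 26 alternatives and its call in 22, and Parp2 in 26 and 15. The cause of these changes was not tested. Per kb of the median coding transcript the levels were 27022 for Parp1, 2524 for Nadk, 604 for Nmnat3, 379 for Nadsyn1 and 169.9 for Nmnat1. Over 30 groups of 5 libraries, 0 single values stood apart by Dixon's criterion. Differences within the counting error of Cd38 and Naprt (about 59 to 152 reads for Naprt) are not detectable at this depth.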
